A study of Mus musculus with 43 samples.

Results

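The genes described here are the 10 mouse genes that write, maintain, protect or remove DNA methylation: Dnmt1, Uhrf1, Dnmt3a, Dnmt3b, Dnmt3l, Dppa3, Zfp57, Tet1, Tet2 and Tet3. They were chosen by gene symbol, with earlier results of these data known, from 35894 symbols that stood in at least 1 of 3 deposited expression tables. All 10 were found in every table. The series holds 43 RNA libraries in 8 groups and sets wild types against mutants of the Polycomb system in mouse full-grown oocytes and in morulae. The first oocyte set had 2 wild-type libraries (PRC1-WT) and 2 with a catalytic dead PRC1 (PRC1-CD), the Polycomb complex that ubiquitinates histone H2A. The second had 3 libraries each of wild type (WT), of a double knockout of Pcgf1 and Pcgf6, which encode PRC1 subunits (DKO), and of a triple knockout that also lacks Mll2, gene Kmt2b, a histone H3 lysine 4 methyltransferase (TKO). The morula groups were WT, maternal DKO (matDKO) and maternal TKO (matTKO), 10 libraries each. Each library of the first set pooled 10 oocytes. PRC1-CD replicate 2 carries a tissue label of embryo, while its title and stage give a full-grown oocyte. Whether replicates are different animals is not in the labels, so p-values measure the spread between these libraries only. Strain, age, the driver of the deletions and the paternal genotype of the morulae are not given in the sources used here.

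DNMT3A and DNMT3B are enzymes that place new methyl groups on cytosine, mostly where a guanine follows it (a CpG), and DNMT3L is a cofactor without catalytic activity that is needed for methylation in oocytes. DNMT1 copies the pattern after replication, guided by UHRF1, which binds DNA methylated on a single strand. DPPA3, also called STELLA, keeps UHRF1 out of the oocyte nucleus and protects maternal methylation after fertilisation, ZFP57 is a KRAB zinc finger protein that holds methylation at imprinted regions, and the TET enzymes oxidise methylated cytosine.

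Start regions are shown first for Dnmt1, Dnmt3b, Dnmt3l and Uhrf1, which are among the members called different between oocyte groups and whose windows differed widely in CpGs, the substrate of the enzymes themselves. RefSeq windows running from upstream of each annotated start into the transcript, 300 bases long in all, were matched by symbol for 9 of the 10 members (18 windows, GRCm38.p6, the build named in the submitters' processing notes). Dppa3 had no entry. Each is printed 5′ to 3′ on the gene's own strand, with every CpG in capitals.

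Dnmt1, farthest upstream start (GRCm38.p6, chr9:20959839-20960138, minus strand): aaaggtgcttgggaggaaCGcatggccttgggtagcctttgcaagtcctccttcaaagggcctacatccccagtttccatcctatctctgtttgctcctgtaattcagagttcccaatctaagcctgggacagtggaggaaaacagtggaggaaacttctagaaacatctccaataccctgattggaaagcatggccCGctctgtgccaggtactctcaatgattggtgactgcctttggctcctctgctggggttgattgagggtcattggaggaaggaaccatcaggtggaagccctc
Dnmt1, farthest downstream start (GRCm38.p6, chr9:20952574-20952873, minus strand): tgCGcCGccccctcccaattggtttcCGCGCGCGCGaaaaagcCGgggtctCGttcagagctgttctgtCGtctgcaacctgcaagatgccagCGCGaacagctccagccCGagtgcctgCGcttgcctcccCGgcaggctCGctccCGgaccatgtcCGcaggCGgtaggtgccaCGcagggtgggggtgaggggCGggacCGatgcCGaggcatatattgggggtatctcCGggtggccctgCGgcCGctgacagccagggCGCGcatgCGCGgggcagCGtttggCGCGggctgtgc
Dnmt3b (GRCm38.p6, chr2:153649199-153649498, plus strand): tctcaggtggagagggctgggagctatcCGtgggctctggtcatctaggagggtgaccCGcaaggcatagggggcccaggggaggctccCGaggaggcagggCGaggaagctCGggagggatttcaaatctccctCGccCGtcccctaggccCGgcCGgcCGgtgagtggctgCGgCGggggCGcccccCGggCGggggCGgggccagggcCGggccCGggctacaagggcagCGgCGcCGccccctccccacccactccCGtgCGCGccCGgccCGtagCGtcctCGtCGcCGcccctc
Dnmt3l, farthest upstream start (GRCm38.p6, chr10:78042037-78042336, plus strand): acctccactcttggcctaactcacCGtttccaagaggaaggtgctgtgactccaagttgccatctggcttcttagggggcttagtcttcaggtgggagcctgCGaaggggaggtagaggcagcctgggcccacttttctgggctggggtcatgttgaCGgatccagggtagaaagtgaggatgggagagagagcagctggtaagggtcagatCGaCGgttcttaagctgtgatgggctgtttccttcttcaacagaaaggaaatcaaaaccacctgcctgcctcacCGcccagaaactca
Uhrf1, upstream start (GRCm38.p6, chr17:56303087-56303386, plus strand): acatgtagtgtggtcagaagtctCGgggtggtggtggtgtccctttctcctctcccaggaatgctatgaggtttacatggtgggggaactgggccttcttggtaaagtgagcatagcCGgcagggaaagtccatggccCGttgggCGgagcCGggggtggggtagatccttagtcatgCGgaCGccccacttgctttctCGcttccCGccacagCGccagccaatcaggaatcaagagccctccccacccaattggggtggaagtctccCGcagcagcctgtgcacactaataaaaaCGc
Uhrf1, downstream start (GRCm38.p6, chr17:56304063-56304362, plus strand): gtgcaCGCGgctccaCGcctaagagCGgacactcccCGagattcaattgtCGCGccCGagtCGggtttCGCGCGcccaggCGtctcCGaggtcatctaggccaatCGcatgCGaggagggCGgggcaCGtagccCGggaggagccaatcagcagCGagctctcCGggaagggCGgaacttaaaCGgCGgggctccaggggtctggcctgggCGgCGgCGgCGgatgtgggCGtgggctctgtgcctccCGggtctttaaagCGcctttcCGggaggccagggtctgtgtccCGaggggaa

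The upstream Dnmt1 window held 2 CpGs and the downstream window 33. The Dnmt1 window between them held 12. Over all 32851 windows of the same length the median was 7 CpGs and the quartiles were 3 and 20. Dnmt3b had 30 CpGs, the Uhrf1 windows 12 and 33, and the 3 Dnmt3l windows 6, 4 and 3. Among members whose windows are not printed, Tet2 had the most CpGs, 57, the upstream pair of Dnmt3a windows had 46 and 47, and Tet1 had 17 and Tet3 22. The deposited values are sums per gene and do not separate these starts. A pair of motifs was searched on both strands: CACGTG, the E-box, and GGCGGGAA, an E2F6-type site. These are letters bound by partners of the PCGF6 form of PRC1. CACGTG was present in 7.15% of all windows and among the members in 1 Dnmt3l window (the middle of 3, base 207) and 1 Dnmt3a window (the farthest downstream, base 171). GGCGGGAA was present in 2.19% of all windows, and in the upstream Uhrf1 window shown above it began, on the opposite strand, at base 203. A match describes the letters only.

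In WT oocytes Dppa3 was the most abundant member, at 5827 ± 177 RPKM (a read count relative to gene length and sequencing total; SD, n = 3), which ranked 4 among all genes by mean level. Zfp57 followed at 609 ± 15.9 RPKM and Dnmt1 at 284 ± 6.36. Uhrf1 stood at 76.8 ± 3.25, Dnmt3l at 67.0 ± 0.508, Tet3 at 27.1 ± 1.86 and Dnmt3a at 10.6 ± 0.441. Dnmt3b (1.63 ± 0.199) and Tet1 (1.6 ± 0.332) came next and overlapped, and Tet2 was lowest at 0.323 ± 0.0709. No other neighbours in that order overlapped. The PRC1-WT libraries gave the same order, with Tet1 (1.92 ± 0.509, n = 2) and Dnmt3b (1.73 ± 0.184) exchanged and overlapping.

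The order of the members was different in WT morulae, where levels are in TPM (transcript abundance scaled to length and to a fixed library total) from a table normalised separately, so no test was made between stages. Dppa3 again led at 2798 ± 546 TPM (SD, n = 10), followed by Dnmt3l at 70.1 ± 14.0 and Tet2 at 27.6 ± 3.20. Dnmt3b stood at 20.3 ± 6.84, Uhrf1 at 17.7 ± 8.15, Tet1 at 12.0 ± 3.31, Dnmt1 at 9.43 ± 1.84, Dnmt3a at 7.55 ± 2.01 and Zfp57 at 4.19 ± 1.1. From Tet2 to Zfp57 every pair of neighbours overlapped over the libraries. Tet3 was at 0.805 ± 0.299 TPM, below every Zfp57 value.

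Among the TET genes, and between Dnmt3a and Dnmt3b, a different gene led at each stage, while Dnmt3l was above both of the latter at both stages. Tet3 made up 93.4% ± 0.932 of the summed Tet1, Tet2 and Tet3 level in WT oocytes and 2.07% ± 0.942 in WT morulae. In the morulae Tet2 made up 68.6% ± 5.18 and Tet1 29.3% ± 5.47. Of the summed Dnmt3a and Dnmt3b level, Dnmt3b was 13.3% ± 0.972 in WT oocytes and 71.6% ± 9.22 in WT morulae. Shares are ratios within a library and do not depend on its scaling.

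**Figure D1:**
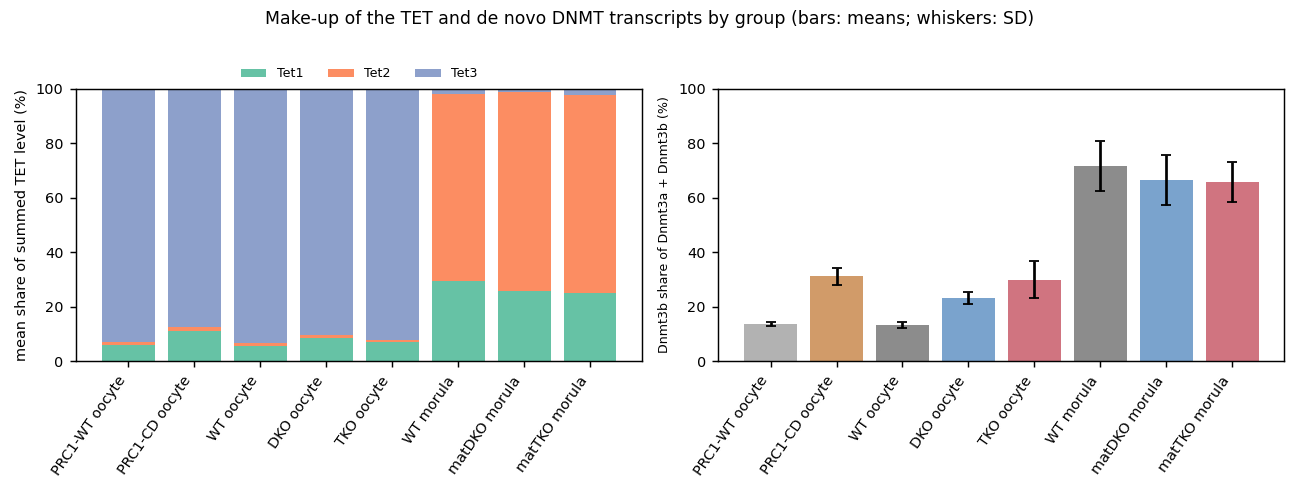
The left panel plots the mean share of Tet1, Tet2 and Tet3 in their summed level (%), and the right panel the Dnmt3b share of summed Dnmt3a and Dnmt3b (%, bars are means, whiskers SD) for the 8 groups. Tet3 fills most of the oocyte bars (93.4% in WT) and Tet2 most of the morula bars (68.6% in WT), and the Dnmt3b share is 13.3% in WT, 23.2% in DKO and 29.8% in TKO oocytes.

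The labels of the knockout oocytes were checked before the comparisons. Mean Pcgf1 was 1108 RPKM in WT against 12.3 in DKO and 12.2 in TKO, Pcgf6 stood at 154, 57.1 and 72.2, and Kmt2b was at 4.85 in WT, 3.90 in DKO and 1.14 in TKO. The catalytic-dead mutation cannot be checked by RNA level. In morulae mean Pcgf1 was 23.4 TPM in WT, 9.94 in matDKO and 14.9 in matTKO, and Pcgf6 was at 23.0, 20.3 and 17.6. Mean Kmt2b was 6.69, 9.55 and 6.87 TPM in the same order, so its RNA did not set matTKO apart from WT. All 10 oocyte markers had a mean of at least 1 RPKM in all 5 oocyte groups, and summed to between 10396 and 14960 RPKM. Granulosa and cumulus markers, for the cells that surround an oocyte, summed to 17.75 and 19.02 RPKM in PRC1-WT and 37.44 and 43.5 in PRC1-CD, where 4 of 10 reached a mean of 1. Their means in PRC1-WT and PRC1-CD were 0.55 and 15.3 RPKM for Fshr, 0.12 and 5.21 for Ptgs2 and 0.285 and 1.63 for Inha, while Cyp19a1 was at 17.2 in both. The other 6 had means of at most 0.51 in either group, and all but Amh, which was listed at 0 in both PRC1-CD libraries, had the higher mean in PRC1-CD. In DKO the same sum was 16.78 to 17.96 against 23.22 to 26.66 in WT, and in TKO 22.35 to 27.02. Within these sums mean Fshr was 6.41 in TKO against 0.477 in WT and 0.203 in DKO, while mean Cyp19a1 was 16.2, 23.3 and 15.1 in the same order. Their part in the differences below was not tested. Per library 10902 to 13086 genes had a value of at least 1. Of the 30 morula libraries 5 stood apart, with a median correlation to the others under 0.9: matDKO replicates 7, 8 and 9 and matTKO replicates 8 and 9. The sequencing depth is unknown.

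Differences were tested as log2(value + 1) with limma across all genes whose mean reached 1 in at least 1 group, and a gene was called at a Benjamini-Hochberg adjusted p under 0.05. On that scale the change of genes near or below 1, such as Tet1 and Dnmt3b in oocytes, is understated. Of the 10 members 9 passed the filter in each table, and the exceptions were Tet2 in both oocyte tables and Tet3 in morulae. Polyadenylated RNA was measured as a share of each library, so a fall of a gene and a rise of other RNA cannot be told apart. Nor, mainly in morulae, can fewer transcripts per cell and fewer cells of a type.

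In oocytes without PRC1 catalytic activity the maintenance enzyme and a de novo enzyme were lower. Dnmt1 stood at 262.37 and 296.07 RPKM in PRC1-WT and at 176.96 and 180.59 in PRC1-CD. Dnmt3a stood at 11.34 and 10.57 in PRC1-WT and at 6.29 and 6.98 in PRC1-CD. For both genes the PRC1-CD values lay below both PRC1-WT values. Dnmt1 fell by 0.64 ± 0.15 on the log2 scale (limma SE, adjusted p = 0.0239) and Dnmt3a by 0.65 ± 0.17 (adjusted p = 0.0338). Of the 9 members tested, 0 were higher and 2 lower, against 17.3% of all 13376 genes called higher and 5.61% called lower. At an unadjusted p under 0.05 the count was 4. The median difference was -0.14 over the members and 0.04 over all genes, and quantile normalization moved the latter by -0.12. Of all calls 75.5% were higher as deposited, 51.1% after quantile normalization and 61.9% after median-ratio scaling. Both calls ended when any 1 of the 4 libraries was left out, with adjusted p between 0.0704 and 0.188, and with no filter on low values (0.0583 for Dnmt1, 0.0618 for Dnmt3a). Both directions were the same in every alternative run.

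The other members in the catalytic-dead set missed the threshold. Dnmt3b was at 1.86 and 1.6 RPKM in PRC1-WT and 2.57 and 3.47 in PRC1-CD, a difference of 0.55 ± 0.19 (95% interval 0.10 to 1.0, adjusted p = 0.0825 by limma). Tet1, at 1.56 and 2.28 against 2.98 and 3.44, differed by 0.54 ± 0.20 (0.07 to 1.0, adjusted p = 0.0963). Both had higher values in PRC1-CD. The groups did not overlap in any of the 9 members tested, so with 2 libraries each non-overlap sets no member apart. Dnmt3l was at 68.12 and 65.76 in PRC1-WT and 55.32 and 53.08 in PRC1-CD (interval -0.65 to 0.05). Dppa3 was at 3066.29 and 5237.31 in PRC1-WT and 5732.76 and 6408.55 in PRC1-CD (interval -0.03 to 1.23). PRC1-WT replicate 1 was the lowest of the 4 libraries for Dppa3, and for Tet3 it was at 40.07 against 26.05 in replicate 2. Uhrf1, Tet3 and Zfp57 had intervals that included 0: -0.50 to 0.21, -0.87 to 0.17 and -0.51 to 0.22. The Dnmt3b share of summed Dnmt3a and Dnmt3b was 13.15% and 14.09% in the PRC1-WT libraries and 29.01% and 33.21% in PRC1-CD.

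**Figure D2:**
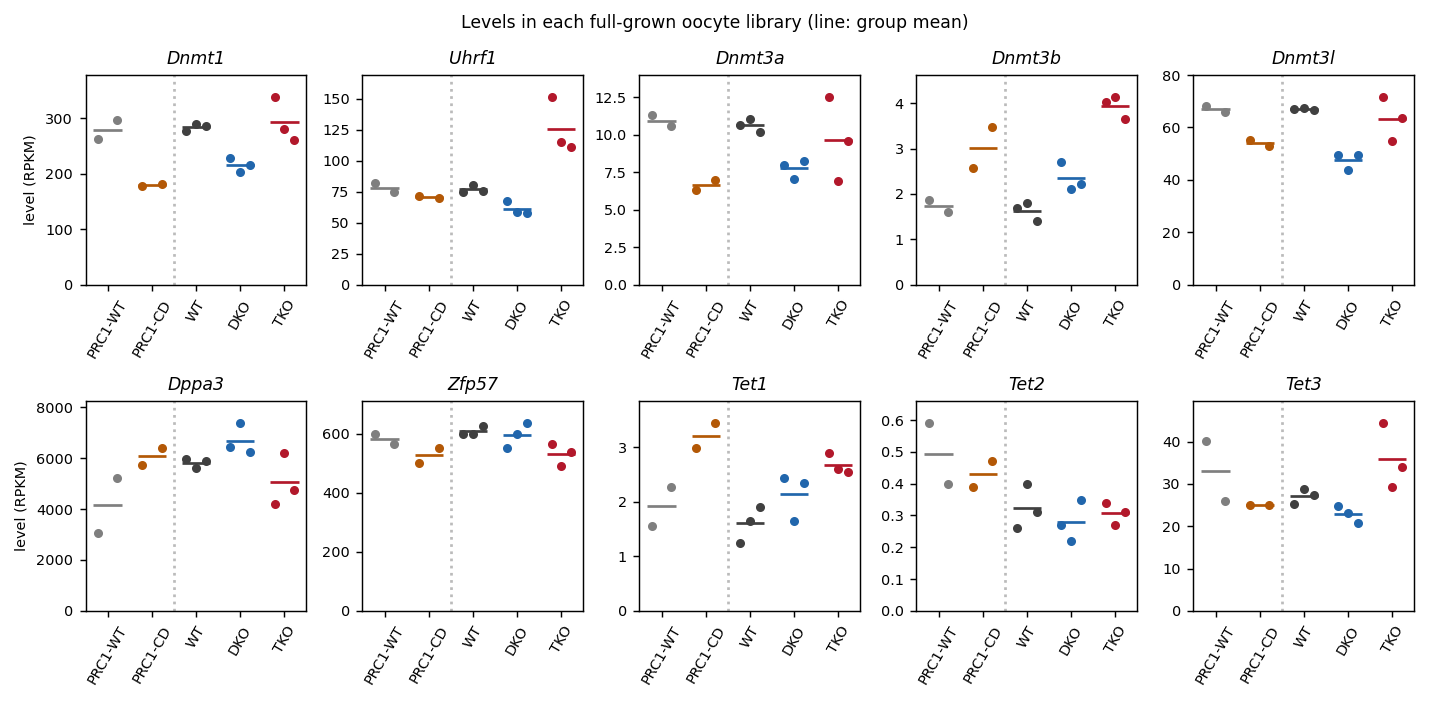
Each panel plots 1 gene, with its level in RPKM on a linear axis from 0 and each of the 13 oocyte libraries as a point, the line marking the group mean; the dotted line separates the sets normalised separately. Dnmt1 is lower in PRC1-CD (means 179 against 279) and DKO (216 against 284), and Uhrf1 is highest in TKO, at 111.06 to 151.39.

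Loss of PCGF1 and PCGF6 was compared with WT in the second oocyte set. Dnmt1 was at 277.34, 289.57 and 286.48 RPKM in WT and 228.79, 202.90 and 215.11 in DKO. Dnmt3l was at 66.93, 67.53 and 66.52 in WT and 49.29, 43.67 and 49.55 in DKO. Every DKO value of these genes lay below every WT value. Dnmt1 fell by 0.40 ± 0.09 (adjusted p = 0.00842 by limma) and Dnmt3l by 0.49 ± 0.10 (adjusted p = 0.00389), and both calls were kept in all 14 alternatives run for each. Dnmt3b was at 1.70, 1.79 and 1.41 in WT and 2.71, 2.12 and 2.21 in DKO, without overlap. It rose by 0.34 ± 0.12 (adjusted p = 0.0478), a call that ended in 11 of 13 alternatives, among them leaving out any 1 of the 6 libraries (adjusted p between 0.0629 and 0.171).

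Of 9 members tested, 1 was higher and 2 lower in DKO, against 17.5% of all 12873 genes called higher and 11.3% called lower. At an unadjusted p under 0.05 the count was 5. The members' median difference was -0.24 and that of all genes 0.03. Of all calls 60.8% were higher as deposited, 47.3% after quantile normalization and 47.4% after median-ratio scaling. Dnmt3a, at 10.66, 11.06 and 10.18 RPKM in WT and 7.97, 7.06 and 8.28 in DKO, differed by -0.41 (95% interval -0.78 to -0.04, adjusted p = 0.0912). Uhrf1, at 74.37, 80.46 and 75.45 in WT and 67.42, 58.58 and 57.94 in DKO, differed by -0.32 (-0.57 to -0.07, adjusted p = 0.0571). Both had all DKO values below all WT values and were called when only WT and DKO entered the fit (adjusted p = 0.00784 for Dnmt3a and 0.0104 for Uhrf1), Uhrf1 also without DKO replicate 1 (adjusted p = 0.0489). Median-ratio scaling called both as well (0.0486 and 0.0194). Dppa3, Tet1, Tet3 and Zfp57 did not pass, with intervals of -0.08 to 0.47, -0.04 to 0.58, -0.54 to 0.06 and -0.19 to 0.12. Dppa3 was called higher in DKO in 2 of 14 alternatives: under quantile normalization (0.31, adjusted p = 0.000143) and with only WT and DKO in the fit (0.19, adjusted p = 0.0472). Quantile normalization sets each value by its rank alone. By mean level Dppa3 ranked 4 in WT and 2 in DKO, so the former call follows steps of rank at the top and says little about its level.

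Dnmt3l and Aire, a gene of thymic self-antigen expression, overlap on opposite strands, and the library chemistry does not mark strand. Aire had a mean of 6.44 RPKM in WT (6.31 to 6.67), 4.42 in DKO (3.96 to 5.18) and 6.05 in TKO (5.75 to 6.56), and 5.92 in PRC1-WT against 3.74 in PRC1-CD. The lower Aire values thus lay in the groups with lower Dnmt3l, and reads of the 2 genes cannot be told apart where they overlap. Antisense genes also overlap Dnmt3a (Dnmt3aos, group means of at most 0.665 RPKM in oocytes), Dnmt3b and Tet2. Pseudogenes of Dppa3, Dnmt3a and Dnmt3l are annotated, so how reads were divided among the copies is uncertain.

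In TKO oocytes, which lack MLL2 as well, the maintenance cofactor Uhrf1 and the de novo enzyme Dnmt3b were higher than in WT and in DKO. Uhrf1 was at 151.39, 115.33 and 111.06 RPKM in TKO, above all WT and DKO values. It rose by 0.69 ± 0.11 against WT (adjusted p = 0.000702 by limma) and by 1.02 ± 0.11 against DKO (adjusted p = 9.14e-05). Dnmt3b was at 4.04, 4.14 and 3.66 in TKO, and again no value overlapped with the other groups. It rose by 0.91 ± 0.12 against WT (adjusted p = 0.000149) and by 0.57 ± 0.12 against DKO (adjusted p = 0.00273). These 4 calls were kept in every alternative run for them.

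Tet1 was at 1.25, 1.65 and 1.91 RPKM in WT, 2.44, 1.65 and 2.34 in DKO and 2.90, 2.60 and 2.54 in TKO. It rose by 0.51 ± 0.14 in TKO against WT (adjusted p = 0.013), and the call ended without WT replicate 1 (adjusted p = 0.0567). Tet3 was at 25.21, 28.91 and 27.32 in WT, 24.75, 23.02 and 20.78 in DKO and 44.33, 29.30 and 33.89 in TKO. It rose against DKO by 0.61 ± 0.14 (adjusted p = 0.00439, kept in all 14 alternatives) and against WT by 0.37 ± 0.14 (adjusted p = 0.0427). The call against WT ended in 11 of 14 alternatives, among them leaving out any 1 WT library or TKO replicate 1 or 3 (adjusted p between 0.0598 and 0.129), and the difference was 0.21 without TKO replicate 1. Tet3 lies on chromosome 6 at 83362373 to 83459084, 281518 bases from Pcgf1. Against WT, an effect of the altered Pcgf1 locus on Tet3 cannot be told apart from the loss of the protein, whereas DKO and TKO both carry that deletion.

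Zfp57 was at 599.85, 599.94 and 627.37 RPKM in WT and 566.49, 490.04 and 536.79 in TKO, all below WT. It fell by 0.20 ± 0.07 against WT (adjusted p = 0.0359), a call that ended in 7 of 14 alternatives, among them leaving out any 1 WT library or TKO replicate 2 or 3 (adjusted p between 0.0627 and 0.115). Zfp57 in DKO, at 551.79, 599.69 and 635.42, overlapped with TKO. The difference between TKO and DKO was not called (adjusted p = 0.0742), but was without DKO replicate 1 (0.0348) or TKO replicate 1 (0.0341). Dppa3 was at 5963.76, 5626.40 and 5890.32 in WT, 6420.31, 7366.90 and 6254.98 in DKO and 4196.81, 6216.88 and 4730.42 in TKO. It fell by 0.42 ± 0.12 in TKO against DKO (adjusted p = 0.0172), and this call ended with no filter on low values and without DKO replicate 2, TKO replicate 1 or TKO replicate 3 (adjusted p between 0.0535 and 0.0675). Against WT the TKO values overlapped, and the interval was -0.50 to 0.05. Without TKO replicate 2 Dppa3 was called lower in TKO than in WT, at -0.39 (adjusted p = 0.0037 by limma). Under quantile normalization it was called higher, by 0.09 (adjusted p = 0.0467). By mean level Dppa3 ranked 4 in WT and 3 in TKO, so that call too follows steps of rank and says little about its level.

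Uhrf1 and Tet3, which lay below all WT values in DKO without being called, lay above all WT values in TKO. For Dnmt1 and Dnmt3l, the members called lower in DKO, mean TKO levels were closer to WT. Dnmt1 was at 337.94, 279.58 and 260.96 RPKM in TKO and rose by 0.43 ± 0.09 against DKO (adjusted p = 0.00309). Dnmt3l was at 71.61, 54.90 and 63.72 and rose by 0.40 ± 0.10 against DKO (adjusted p = 0.00596). Both calls were kept in all 14 alternatives. Against WT the intervals were -0.17 to 0.23 for Dnmt1 and -0.30 to 0.13 for Dnmt3l. Dnmt3a was at 12.53, 6.92 and 9.57 in TKO and overlapped with both other groups. Without TKO replicate 2 it was called higher in TKO than in DKO, by 0.45 (adjusted p = 0.0135). Tet2 stayed between 0.22 and 0.40 RPKM in all 9 libraries and was not tested.

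In all, 4 members were higher and 1 lower in TKO against WT, where 31.2% of all 12873 genes were called higher and 20.1% lower. Against DKO 5 were higher and 1 lower, where 26.8% were called higher and 21.8% lower. Of all calls against WT 60.8% were higher as deposited and 48.9% after median-ratio scaling. The members' median difference was 0.03 against WT (all genes 0.09) and 0.40 against DKO (all genes 0.04). DKO and TKO were set against the same WT libraries, and TKO against DKO uses both mutant groups again, so these comparisons are not independent.

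**Figure D3:**
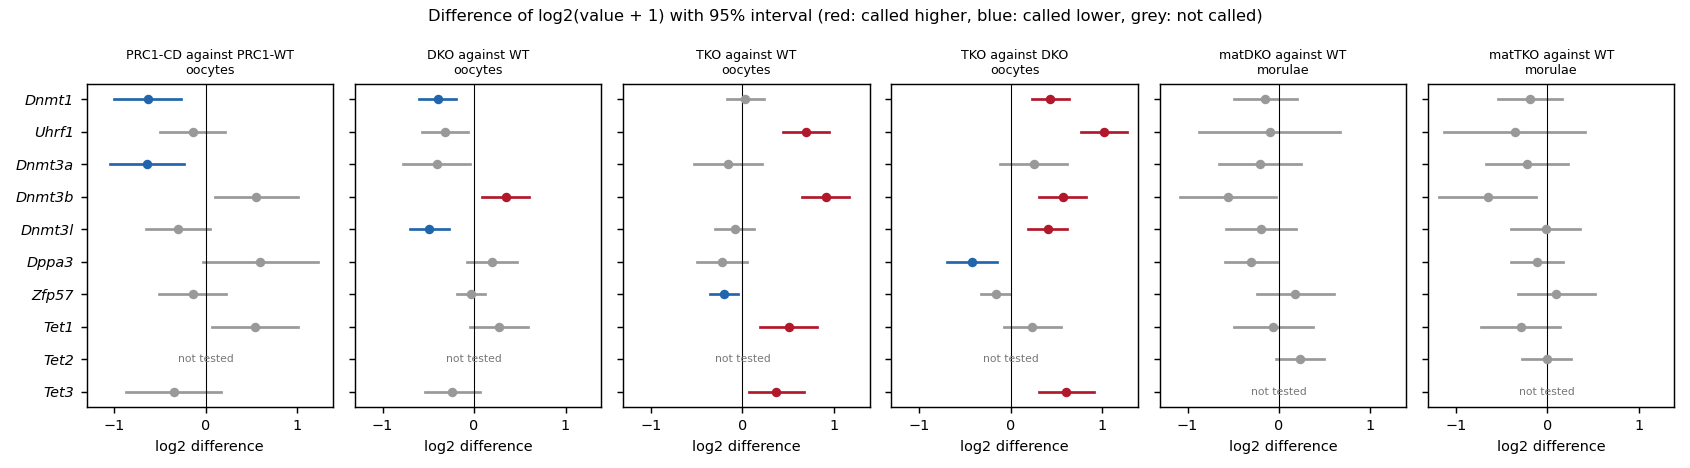
Points are limma differences of log2(value + 1) for each gene in 6 comparisons and lines their 95% intervals, red where called higher, blue where called lower and grey where not called. Uhrf1 lies at 0.69 in TKO against WT and at 1.02 against DKO, Dnmt1 at -0.40 in DKO and 0.03 in TKO against WT, and no interval in the morula panels is coloured.

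The proportions between partner genes followed these levels. Uhrf1 per Dnmt1 was 0.2634 to 0.2779 in WT, 0.2694 to 0.2947 in DKO and 0.4125 to 0.448 in TKO, so WT and DKO overlapped and TKO did not. In PRC1-WT it was 0.2521 and 0.3112, and in PRC1-CD 0.3882 and 0.4029. Dnmt3l per Dnmt3a was 6.31 ± 0.216 in WT, 6.12 ± 0.116 in DKO, while TKO, at 6.77 ± 1.11, varied more (SD, n = 3). For the first oocyte set it was 6.007 and 6.221 in PRC1-WT and 7.605 and 8.795 in PRC1-CD, without overlap. The Dnmt3b share of summed Dnmt3a and Dnmt3b was 12.17% to 13.93% in WT, 21.07% to 25.37% in DKO and 24.38% to 37.43% in TKO. These proportions were not tested.

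In morulae no member was called in any comparison. In matDKO against WT the counts were 0 higher and 0 lower of 9 tested, where 0.329% of all 13056 genes were called higher and 1.41% lower. In matTKO against WT they were 0 and 0, where 0.176% and 0.391% were called, and in matTKO against matDKO 0 and 0, where 0.046% and 0.023% were called. Quantile normalization and median-ratio scaling moved the share of higher calls in matDKO from 18.9% to 40.4% and 36.6%, and quantile normalization moved that in matTKO from 31.1% to 43.8%. At an unadjusted p under 0.05 limma gave 2, 1 and 0 members. The members' median differences were -0.15, -0.19 and -0.08, and those of all genes -0.09, -0.06 and 0.03.

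Of the members, Dnmt3b had the lowest unadjusted p in morulae, in matTKO against WT (0.0174 by limma). It ranged from 8.67 to 31.65 TPM in WT (median 21.3), from 5.07 to 23.43 in matDKO (median 14.1) and from 5.99 to 23.92 in matTKO (median 12.3), and all groups overlapped. The difference was -0.56 ± 0.26 in matDKO (95% interval -1.09 to -0.03, adjusted p = 0.261) and -0.65 ± 0.26 in matTKO (-1.18 to -0.12, adjusted p = 0.261). Without the 5 libraries that stood apart the differences were -0.38 and -0.58. Dppa3 ranged from 2180.48 to 3515.08 TPM in WT (median 2708), from 1696.83 to 2697.92 in matDKO (median 2426) and from 1567.03 to 3808.02 in matTKO (median 2529). Its difference was -0.30 ± 0.14 in matDKO (-0.59 to -0.02, adjusted p = 0.253) and -0.11 ± 0.14 in matTKO.

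The other members overlapped between all morula groups too. Uhrf1 ranged from 8.4 to 36.21 TPM in WT, 1.2 to 43.89 in matDKO and 4.32 to 30.96 in matTKO, the widest intervals of any member (-0.87 to 0.67 in matDKO, -1.13 to 0.41 in matTKO). Dnmt1 had medians of 9.51, 8.47 and 8.08 TPM in WT, matDKO and matTKO, and Dnmt3a of 7.29, 5.46 and 6.14. Dnmt3l had medians of 69.6, 61.4 and 67.4, with 1 matTKO library at 181.46. Tet1 had medians of 10.8, 11.9 and 9.23, Tet2 of 26.8, 32.1 and 28.0 and Zfp57 of 4.05, 4.70 and 4.46. Tet3, at means of 0.805, 0.571 and 0.758, did not pass the filter in any group.

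**Figure D4:**
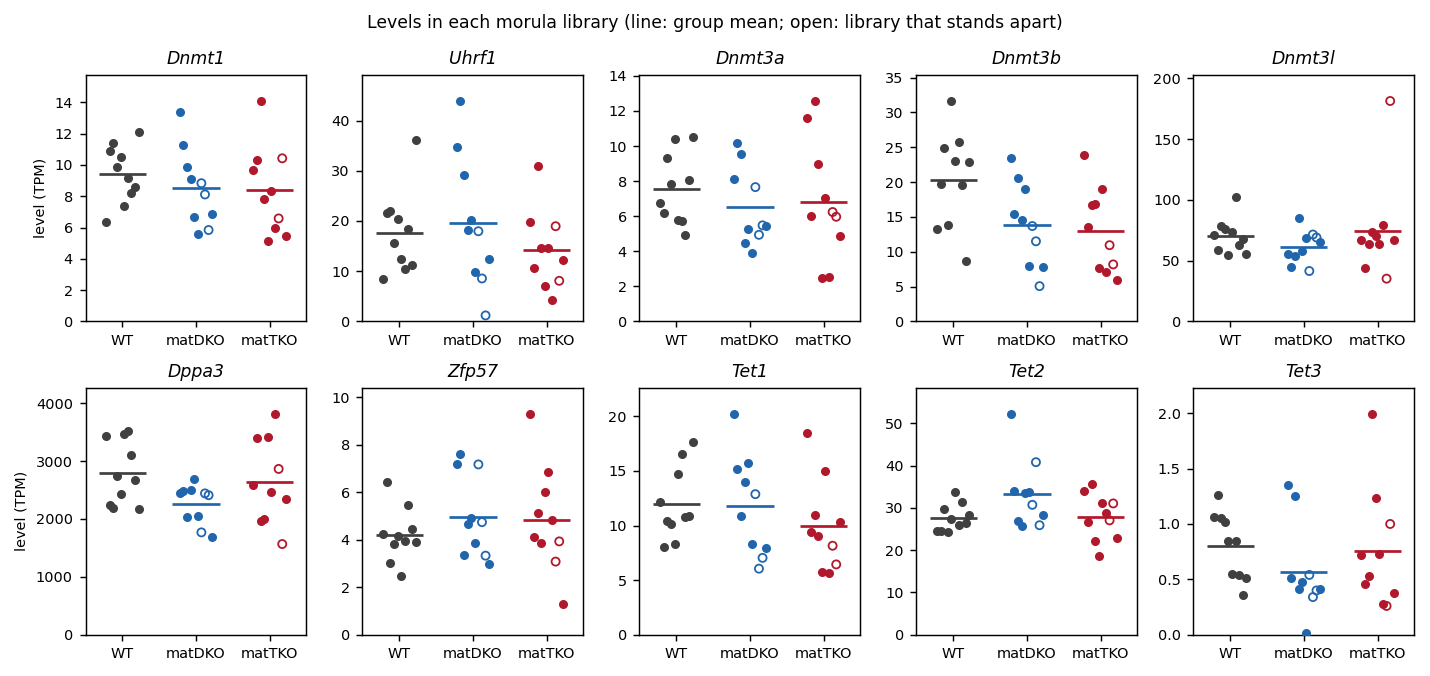
Each panel plots 1 gene in TPM on a linear axis from 0, with the 30 morula libraries as points, group means as lines and the 5 libraries that stood apart as open circles. The groups overlap in every panel; 1 matTKO library lies at 181.46 for Dnmt3l and 1 matDKO library at 1.2 for Uhrf1.

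Markers of trophectoderm, the outer cell layer that begins to form at this stage, were summed in each morula library. All 7 had a mean of at least 1 TPM in each morula group, and their sum ranged from 1054 to 4629 TPM in WT, from 159 to 2691 in matDKO and from 314 to 2572 in matTKO. In the 5 libraries that stood apart the sum had a median of 564 against 2334 in the other 25. In the same libraries Dnmt3b had a median of 10.95 against 16.88 TPM, Uhrf1 8.56 against 15.7 and Tet1 7.04 against 10.84, while Dppa3 had 2411 against 2475. The 5 libraries are all matDKO or matTKO, and the other 25 include every WT library, so genotype is mixed into this contrast. The part of these markers in the member values was not tested.

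Across the 30 morulae several members varied together, described here within groups as Pearson r of log2(value + 1) after subtracting group means. Dnmt1 and Dnmt3a had r = 0.73, Dnmt3b and Uhrf1 0.71, Dnmt1 and Uhrf1 0.68, and Dnmt3b and Tet1 0.63. Dppa3 had r = -0.52 to Dnmt3a, -0.42 to Dnmt1 and -0.31 to Uhrf1, and between -0.23 and 0.11 to the other members. Libraries share their scaling to a fixed total, so no p is given. All r include the 5 libraries that stood apart, with Uhrf1 at 1.2 TPM in matDKO replicate 9 and Dnmt3l at 181.46 in matTKO replicate 9. By likeness over all 30 libraries, among 8163 genes with a mean of at least 5 (8164 for Zfp57), the gene nearest to Dnmt1 was Fam120a (r = 0.84), to Dnmt3a Hic2 (0.83), to Dnmt3b Smtn (0.88), to Uhrf1 Hip1 (0.87), to Dppa3 Rfc4 (0.81) and to Tet1 Ofd1 (0.79). The nearest to Dnmt3l was Gm12191 (0.69), to Zfp57 Sfmbt2 (0.67) and to Tet2 Fbxo22 (0.65). By Spearman rank correlation these nearest pairs ran from 0.63 (Dnmt3l) to 0.87 (Dnmt3b), with Uhrf1 at 0.78.

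Further genes of the pathway were read from 6 lists, which were set with earlier results of these data known. Their counts are read against the shares of all genes called higher and lower, which were 17.3% and 5.61% in PRC1-CD, 17.5% and 11.3% in DKO, 31.2% and 20.1% in TKO against WT and 26.8% and 21.8% in TKO against DKO. The list of active demethylation and base excision repair was the longest, with 13 of 19 genes tested in oocytes. In PRC1-CD 5 were higher and 1 lower, in DKO 5 and 1, in TKO against WT 6 and 3, and in TKO against DKO 6 and 4. The shares higher were 38.5%, 38.5%, 46.2% and 46.2%, above those of all genes, and the shares lower were 7.69%, 7.69%, 23.1% and 30.8%. The list's median differences in the first 3 of these were 0.47, 0.23 and 0.16, against 0.04, 0.03 and 0.09 over all genes. The related genes Gadd45a, Gadd45b and Gadd45g were all among the genes higher in those 3 comparisons, so the counts are not of unrelated genes. Gadd45b, of the GADD45 stress proteins that have been linked to demethylation, was at 1.88 and 2.61 RPKM in PRC1-WT and 14.41 and 14.47 in PRC1-CD. In the second set it was at 2.22, 2.38 and 1.34 in WT, 11.65, 9.02 and 10.26 in DKO and 18.88, 17.21 and 20.13 in TKO. All mutant values lay above all wild-type values. Gadd45b rose by 2.26 ± 0.19 in PRC1-CD, 1.94 ± 0.15 in DKO and 2.74 ± 0.15 in TKO (adjusted p = 0.000405, 1.65e-05 and 8.85e-07 by limma).

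Gadd45a rose in the same comparisons, by 1.44 ± 0.20, 1.28 ± 0.17 and 2.32 ± 0.17. Gadd45g was listed at 0 in both PRC1-WT libraries and at 3.83 and 5.92 RPKM in PRC1-CD, and it was at 0 to 0.05 in WT, 0.50 to 2.82 in DKO and 2.16 to 7.06 in TKO. Cxxc5, a CXXC protein of the family that binds unmethylated CpGs, rose by 1.77 ± 0.29, 0.64 ± 0.14 and 1.57 ± 0.14. Smug1, a uracil-DNA glycosylase, had its lowest values in PRC1-CD and DKO. It was at 10.22 and 9.26 in PRC1-WT and 2.33 and 1.98 in PRC1-CD, and at 9.47, 10.24 and 8.39 in WT, 4.79, 3.14 and 3.31 in DKO and 12.40, 9.41 and 10.06 in TKO. Smug1 fell by 1.77 ± 0.18 in PRC1-CD and by 1.14 ± 0.15 in DKO, and rose by 1.3 ± 0.15 in TKO against DKO. In TKO, Wdr76 fell by 0.76 ± 0.07 against WT. The glycosyltransferase Ogt, a partner of TET proteins, fell in TKO by 0.91 ± 0.10 against DKO and by 0.55 ± 0.10 against WT. In DKO, Ogt was called higher than in WT, by 0.36 ± 0.10.

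**Figure D5:**
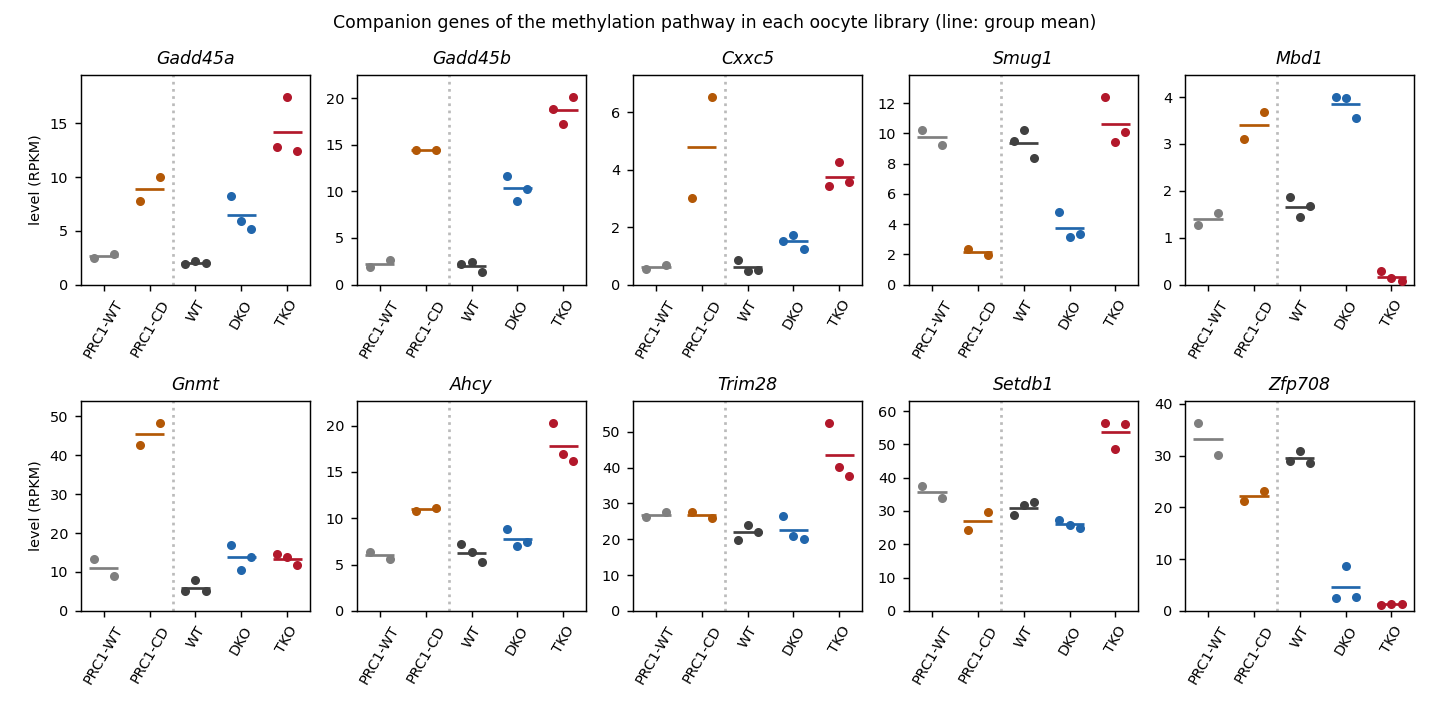
Each panel plots 1 further gene of the pathway in RPKM on a linear axis from 0, with the 13 oocyte libraries as points and group means as lines; the dotted line separates the sets normalised separately. Gadd45b is at 1.34 to 2.61 in wild types and 9.02 to 20.13 in mutants, Smug1 is low in PRC1-CD and DKO, and Mbd1 is lowest in TKO, at 0.07 to 0.29.

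Of 8 methyl-CpG binding proteins, 7 were tested in the catalytic-dead set and 6 in the other. The counts higher and lower were 2 and 0 in PRC1-CD, 2 and 0 in DKO, 2 and 1 in TKO against WT and 1 and 1 in TKO against DKO. In PRC1-CD that is 28.6% and 0%, where all genes had 17.3% and 5.61%, and in DKO 33.3% and 0% against 17.5% and 11.3%. In TKO against WT it is 33.3% and 16.7%, near the 31.2% and 20.1% of all genes. In TKO against DKO it is 16.7% each against 26.8% and 21.8%. Mbd1, a repressor that binds methylated CpGs, was at 1.27 and 1.52 RPKM in PRC1-WT and 3.10 and 3.69 in PRC1-CD. In the second set it was at 1.87, 1.43 and 1.68 in WT, 4.0, 3.98 and 3.56 in DKO and 0.29, 0.14 and 0.07 in TKO, 3 levels without overlap. Mbd1 rose by 0.87 ± 0.18 in PRC1-CD and by 0.87 ± 0.12 in DKO, and in TKO it fell by 1.19 ± 0.12 against WT and fell by 2.06 ± 0.12 against DKO (adjusted p = 1.98e-06). Zbtb38, a zinc finger reader of methylated DNA, rose by 0.77, 0.83 and 0.65 in PRC1-CD, DKO and TKO, and Mbd2 rose by 0.75 ± 0.16 in TKO.

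ZFP57 acts with TRIM28 and the H3K9 methyltransferase SETDB1. Of 12 genes of imprint protection and KRAB repression, 11 were tested in oocytes. The counts higher and lower were 0 and 0 in PRC1-CD (4 at an unadjusted p under 0.05 by limma), 0 and 2 in DKO, 4 and 2 in TKO against WT and 4 and 2 in TKO against DKO. In PRC1-CD that is 0% and 0%, where all genes had 17.3% and 5.61%, and in DKO 0% and 18.2% against 17.5% and 11.3%. In both TKO comparisons it is 36.4% and 18.2%, where all genes had 31.2% and 20.1% against WT and 26.8% and 21.8% against DKO. Setdb1 was at 28.66, 31.67 and 32.78 RPKM in WT, 27.29, 25.72 and 24.79 in DKO and 56.32, 48.57 and 56.08 in TKO, and rose in TKO by 0.77 ± 0.08 against WT. Trim28 rose in TKO by 0.94 ± 0.14, from a mean of 22 to 43.4. Zfp708, a KRAB zinc finger gene, was at 29.02, 30.94 and 28.65 in WT, 2.45, 8.58 and 2.74 in DKO and 1.14, 1.31 and 1.35 in TKO. It fell by 2.62 ± 0.31 and 3.75 ± 0.31, and stood among the largest falls in earlier results of these data when the list was set.

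Of 8 maintenance partners 7 or 8 were tested. The counts higher and lower were 0 and 1 in PRC1-CD, 1 and 0 in DKO, 3 and 1 in TKO against WT and 2 and 1 in TKO against DKO. In PRC1-CD that is 0% and 12.5%, where all genes had 17.3% and 5.61%, and in DKO 14.3% and 0% against 17.5% and 11.3%. In TKO against WT it is 42.9% and 14.3% against 31.2% and 20.1%. In TKO against DKO it is 28.6% and 14.3% against 26.8% and 21.8%. Cdca7l fell by 0.96 ± 0.22 in PRC1-CD. Cdca7, which recruits the remodeller HELLS to chromatin, rose by 0.58 ± 0.14 in DKO. In TKO the acetyltransferase gene Kat5 fell by 1.09 ± 0.13 against WT and fell by 0.96 ± 0.13 against DKO.

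Of 12 genes of chromatin steps that prepare oocyte methylation, 8 were tested in oocytes. The counts were 0 and 0 in PRC1-CD (1 at an unadjusted p under 0.05 by limma), 1 and 1 in DKO, 4 and 2 in TKO against WT and 2 and 2 in TKO against DKO. The 4 higher of 8 in TKO against WT are 50%, where all genes had 31.2%, and the shares against DKO, 25% each, are near 26.8% and 21.8%. Kdm1b, the H3K4 demethylase needed for methylation of many imprinted regions in oocytes, rose by 0.67 ± 0.15 in DKO and by 0.60 ± 0.15 in TKO. Its relative Kdm1a rose in TKO by 0.60 ± 0.07 and Cxxc1, a subunit of H3K4 methyltransferase complexes, by 0.65 ± 0.15, while Zfp281 fell by 0.56 ± 0.10. Setd2, which writes H3K36me3, fell by 0.51 ± 0.14 in TKO against DKO.

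Of 13 genes of methyl donor supply, 9 were tested in oocytes, with 2 higher and 0 lower in PRC1-CD, 2 and 1 in DKO, 2 and 1 in TKO against WT and 2 and 2 in TKO against DKO. In DKO that is 22.2% and 11.1%, where all genes had 17.5% and 11.3%, and in TKO against WT the same 22.2% and 11.1% lie below 31.2% and 20.1%. Gnmt, which consumes S-adenosylmethionine, rose by 1.96 ± 0.21 in PRC1-CD, 1.08 ± 0.19 in DKO and 1.06 ± 0.19 in TKO. Ahcy, which clears the product of methylation, rose by 0.78 ± 0.17 in PRC1-CD and by 1.37 ± 0.13 in TKO. Mat2a, which makes the methyl donor, rose by 0.64 ± 0.14 in DKO and fell by 0.56 ± 0.14 in TKO against DKO. In morulae none of the 59 listed genes tested was called by limma in any comparison, while 9, 8 and 6 had an unadjusted p under 0.05 in matDKO against WT, matTKO against WT and matTKO against matDKO.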

How the data were processed

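The authors deposited RPKM values per gene for the oocyte libraries. The deposited morula table is titled RPKM, but each library sums to between 999421 and 999922, so its values were taken as TPM. Trim Galore 0.6.4, STAR 2.7.3 and 2.7.6, RSEM 1.3.1 and featureCounts 1.6.0 are named per the submitters' processing notes, with builds mm10 and GRCm38, and the sources used here do not assign them to tables. Libraries were made with SMART-Seq v4 and Nextera XT from polyadenylated RNA, per the labels' protocols. Depth is unknown. Date-like gene names (27 per oocyte table) were dropped.

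The test was limma's (version 3.58.1, R 4.3.3, moderated with a mean trend) on log2(value + 1), 1 fit per table over all its groups, on genes with a group mean of at least 1. P-values are two-sided and Benjamini-Hochberg adjusted over all genes tested, and a gene was called under 0.05. All 10 members are described, and further genes are named where called with an absolute log2 difference of at least 0.5, at most 5 per list and comparison by size. The members and lists were chosen with earlier results of these data known. The code was tested on simulated data with planted changes larger than most member differences reported here. How well smaller changes are recovered was not tested.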

Additional observations from a re-analysis of the deposited data

Results flagged for a closer look

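Uhrf1 in matDKO replicate 9 was at 1.2 TPM, far below the next lowest of the 10 matDKO libraries at 8.56. Dnmt3l in matTKO replicate 9 was at 181.46 TPM, far above the next highest of its group at 79.65. On the log2(value + 1) scale the gap to the nearest library, as a share of the group's range, was above Dixon's 95% limit for 10 samples in both cases (0.487 and 0.505 against 0.466). On the TPM scale the gap was 0.696 for this Dnmt3l value but 0.172 for this Uhrf1 value, which is under the limit. On that scale the highest WT morulae for Dnmt3l (102.09 TPM, gap 0.503) and Uhrf1 (36.21 TPM, gap 0.51) passed it instead. Both replicate 9 libraries were among the 5 that stood apart. On the log2 scale these were 2 of 30 combinations of group and gene examined, and chance gives about 1 in 20.

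Dppa3 lay on opposite sides of the WT mean at the 2 stages. All 3 DKO oocyte libraries lay above the WT oocyte mean, with a ratio of means of 1.1465, and all 10 matDKO morulae lay below the WT morula mean. The 10 members were searched for such a pattern in DKO with matDKO and in TKO with matTKO, and only Dppa3 in the former met it. The difference between the stages was not tested, and neither comparison was called as reported. The oocyte difference was called with only WT and DKO in the fit (adjusted p = 0.0472 by limma). It was also called under quantile normalization (0.000143), which sets this top-ranked gene by its rank alone.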

How the results depend on the processing

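Of 709 member values under alternatives, 649 kept their side of the threshold, 44 lost a call, 15 gained one and 1 was called in the other direction. The last was Dppa3 in TKO against WT, 0.0885 under quantile normalization, which sets values by rank alone. Among the 649, 16 values that were called in neither fit changed sign. In PRC1-CD 0 members were called with no filter, and 1664 genes with a filter at a mean of 5 (3059 as reported). The fit of DKO and WT alone called 5 members. In TKO against WT 3 members were called with no filter, 3 with the filter at a mean of 5 and 3 without the trend. Leaving out 1 library gave 1238 to 1543 genes and as few as 0 members in PRC1-CD, 2421 to 2947 genes in DKO (3701 as reported), and 2 to 5 members in TKO against WT.

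In matDKO against WT (227 genes as reported) 93 genes were called with no filter. In matTKO against WT (74) the counts were 21 with a pseudocount of 0.1, 32 with no filter, 137 under quantile normalization, 127 with only both groups in the fit and 272 without the libraries that stood apart, a setting chosen after seeing the data. In matTKO against matDKO (9) they were 5 with no filter, 1 with a filter at a mean of 5, 4 with only both groups and 15 without those libraries. The causes were not tested.

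With a replicate block 607, 183 and 16 genes were called in these morula comparisons. The labels share only replicate numbers. Same-numbered libraries deviated together at r above 0.1 in 1 of 3 DKO pairs and 0 of 3 pairs in each TKO comparison. The counts were 3 of 10 pairs in matDKO and in matTKO against WT, and 7 of 10 in matTKO against matDKO. In PRC1-CD r was 0.088, a single value, because with 2 libraries per group both pairs mirror each other. These values do not settle whether libraries were paired. Under the block Dppa3 was called in PRC1-CD (adjusted p = 0.0388 by limma) and Uhrf1 in DKO (0.0464), while the calls of Dnmt3b in DKO (0.0626) and Tet3 in TKO against WT (0.0514) ended. Without counts, the depth behind low values such as Tet1, Tet2 and Dnmt3b in oocytes is unknown.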
